A study of Mus musculus with 6 samples.

Results

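The potassium channel genes described here are those whose symbols start with *Kcn*, without the *Kcnk* family of leak channels and without *Kcnj8* and *Kcnj10*. They cover the pore-forming subunits and auxiliary subunits of the voltage-gated (Kv), calcium- and sodium-activated and inward-rectifier (Kir) channels. Of 22180 genes with a probe set that carries a single gene symbol, 75 met this definition, and 15 other *Kcn* genes fell outside it. Each gene was represented by its probe set with the highest mean signal over all arrays. RefSeq lists all 75 symbols for the mouse.

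RNA from lumbar dorsal root ganglia (DRGs) of naïve adult mice, labelled C57Bl/6 and from lines backcrossed to C57Bl/6J per the methods, was hybridized to Affymetrix Mouse Gene 2.0 ST arrays, 3 for HDAC4 Nav1.8 cKOs and 3 for wild-type (HDAC4 fl/fl) controls. Both groups carry the floxed *Hdac4* allele, and the cKOs also carry Nav1.8-Cre, which recombines mainly in nociceptive neurons, so that satellite glia, Schwann cells and neurons without Nav1.8 keep the gene. The methods give an age of 2 mo. As the labels do not say whether each array had its own animal, a p value here gauges just the variation among these samples. In whole ganglia, fewer cells of a type and less RNA per cell cannot be told apart.

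Potassium channels set the resting potential of a sensory neuron, repolarize it after each action potential and limit how often it fires. Kv1, Kv4 and Kv7 channels act as brakes near threshold, Kv2 and Kv3 channels end the spike, and calcium-activated channels shape the afterhyperpolarization. Inward rectifiers stabilize the resting potential of neurons and take up or carry potassium in glia and epithelia. HDAC4 belongs to the class IIa histone deacetylases, which are recruited by transcription factors to silence their target genes, so the comparison asks whether its loss from nociceptors alters the expression of these genes in uninjured ganglia.

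No potassium channel gene passed the test. Signals are log2 values of the robust multichip average (RMA), differences are log2 fold changes, cKO minus wild-type, and p values are 2-sided from limma, adjusted by Benjamini-Hochberg across the 41345 probe sets of the array table. At an adjusted p under 0.05, 0 of 75 potassium channel genes were called, against 0.0% of all genes, and their adjusted p values from limma lay between 0.64 and 1.0. At an unadjusted p under 0.05, limma gave 4 of 75 (5.33%), 3 higher (*Kcnj4*, *Kcnh3* and *Kcnn1*) and 1 lower (*Kcnmb2*) in the cKOs, against 5.48% of all genes (2.67% higher and 2.8% lower). The share among the potassium channel genes was thus near that of all genes. The groups did not overlap for 14 of 75 (18.7%), 9 higher and 5 lower in the cKOs, against 13.7% of all genes (6.3% higher and 7.4% lower). Among genes above the median probe set signal of 6.47, which were 54 of the 75 (72.0%) and 60.6% of all genes, the groups did not overlap for 13 of 54 (24.1%), against 16.2% of all genes above that signal. The same 4 genes had an unadjusted p under 0.05 there (7.41%, against 5.63%).

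The intervals also bound a difference in the signal of whole ganglia, which need not equal one within the recombined neurons. Log2 fold changes of the 75 genes lay between -0.29 and 0.27, with a median of 0.01, against a median of 0.00 over all genes, and 43 were positive, 31 negative and 1 zero. Their median size was 0.08, as it was over all genes, with standard errors (SE) between 0.06 and 0.21. For 68 of 75 the 95% confidence interval lay within 0.5 of 0, against 87.3% of all genes, and for 75 of 75 it lay within 1 of 0, against 99.2%. The 7 whose intervals reached beyond 0.5 were *Kcng1*, *Kcnh5*, *Kcnj1*, *Kcnn3*, *Kcnq1ot1*, *Kcns2* and *Kcnt2*. With 3 arrays per group, a difference within these intervals could go undetected. An exact permutation test of 3 against 3 cannot give a p below 0.1.

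**Figure D1:**
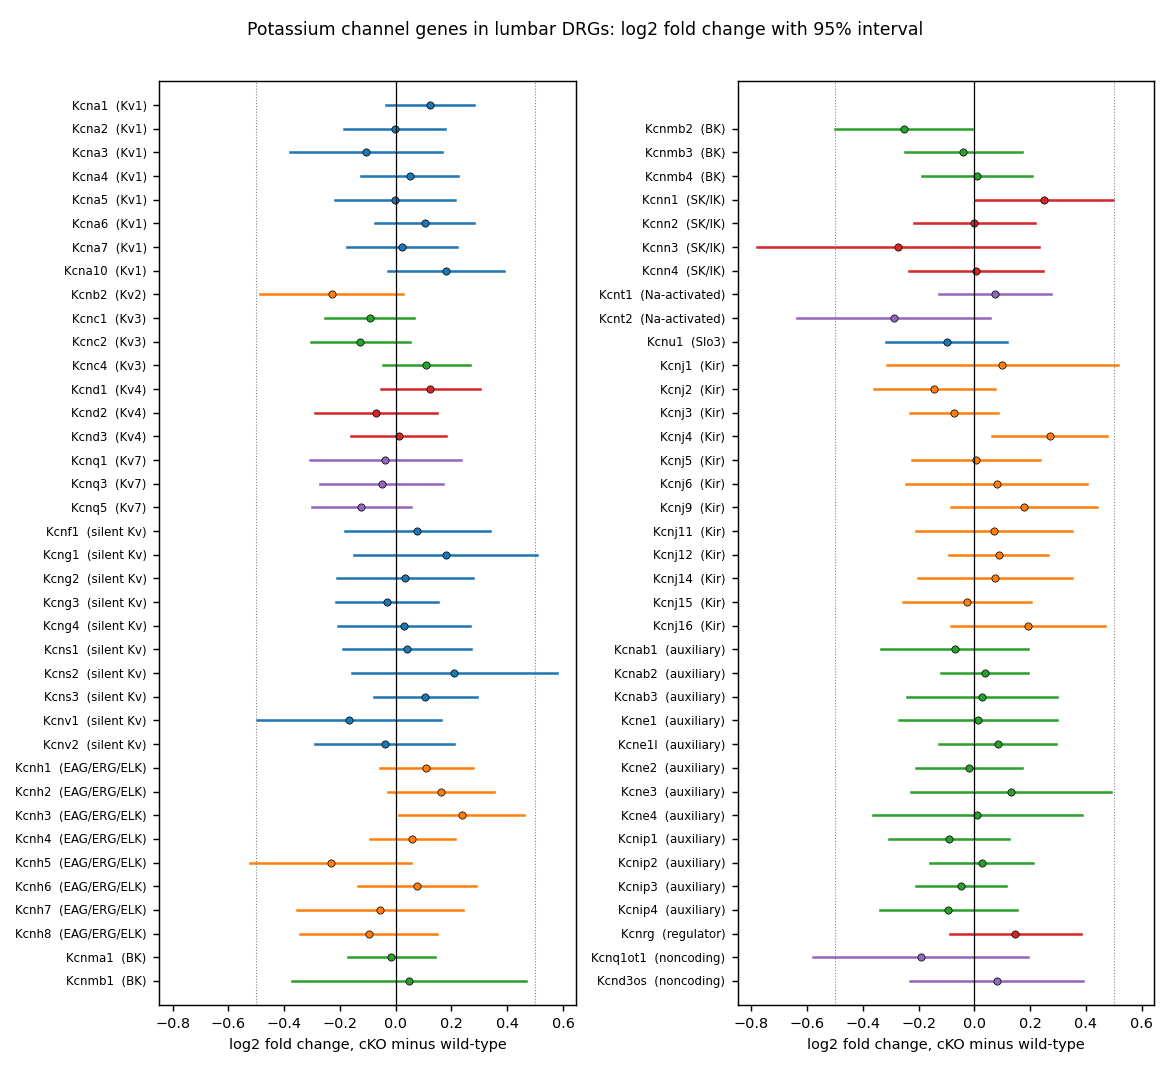
Log2 fold change (cKO minus wild-type, x axis) of each of the 75 potassium channel genes (rows, with channel class), with its 95% confidence interval from limma (n = 3 arrays per group) and dotted lines at -0.5 and 0.5. All point estimates lie between -0.29 and 0.27, and only the intervals of *Kcnj4*, *Kcnh3*, *Kcnn1* and *Kcnmb2* leave out 0.

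**Figure D2:**
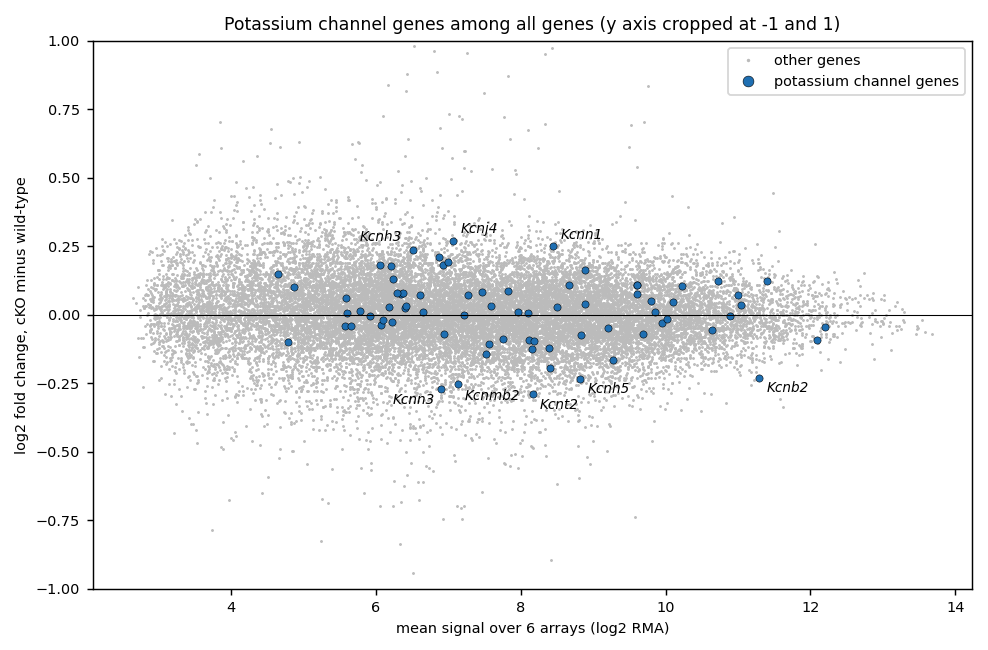
Log2 fold change (cKO minus wild-type, y axis) against mean signal over the 6 arrays (log2 RMA, x axis) for the 75 potassium channel genes (blue) and all other genes (gray), with the y axis cropped at -1 and 1, which leaves out 22 genes. The potassium channel genes span signals of 4.64 to 12.2 and lie within the gray band at each signal.

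Several features of the whole series touch these values. *Hdac4* itself was 9.17, 9.14 and 9.21 in the cKO arrays, against 9.22, 9.49 and 9.19 in the wild-type arrays (log2 fold change -0.13, adjusted p = 0.776 from limma). The probe set's place relative to the deleted exons was not checked here. By RT-qPCR the paper reports less *Hdac4* mRNA in DRGs of the cKOs, both in the floxed exons and outside them. It also reports less HDAC4 protein by Western blot. *Xist*, which is transcribed from the inactive X chromosome, was 11.74, 6.67 and 5.95 in the cKO arrays, against 11.60, 11.71 and 11.60 in the wild-type arrays, and the Y-linked *Uty* was 4.59, 9.26 and 9.01 in the cKO arrays, against 4.50, 4.59 and 4.31 in the wild-type arrays. Replicates 2 and 3 of the cKOs thus had the signals of male tissue, and cKO replicate 1 and all wild-type arrays those of female tissue. The methods describe the groups as sex matched, which these signals do not show, and sex and genotype are partly confounded. The mean of 14 skeletal muscle markers, all of them with a positive log2 fold change, was 8.35, 8.99 and 8.26 in the cKO arrays, against 7.16, 6.74 and 8.39 in the wild-type arrays. Means of 13 DRG neuron markers (11.81 to 11.83 in the cKO arrays, against 11.77 to 11.81) and of 8 Schwann cell markers (9.37 to 9.68, against 9.46 to 9.52) were closer. The part of sex-linked or muscle RNA in the results below was not tested beyond fits with *Xist* or the muscle mean as a covariate. The fit with *Xist* compares mainly cKO replicate 1 with the wild-type arrays, because only that cKO array had a high *Xist* signal.

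The Kv1 genes (*Kcna*) encode low-threshold channels that delay firing and hold back repetitive spikes. *Kcna1* (Kv1.1), which is concentrated beside the nodes of myelinated sensory axons, was 11.46, 11.42 and 11.52 in the cKO arrays, against 11.35, 11.35 and 11.33 in the wild-type arrays. All 3 cKO arrays lay above all 3 wild-type arrays, at a log2 fold change of 0.12 (SE 0.07, adjusted p = 0.706 from limma). *Kcna2* (Kv1.2), its usual partner in the same channels, was 10.93, 10.89 and 10.83 in the cKO arrays, against 10.98, 10.85 and 10.83 in the wild-type arrays, with overlapping groups and a difference of 0.00 (SE 0.08). *Kcna6* (Kv1.6) was 10.36, 10.20 and 10.26 in the cKO arrays, against 10.20, 10.12 and 10.19 in the wild-type arrays, where the lowest cKO array equalled the highest wild-type array.

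*Kcna4* (Kv1.4) carries the fast-inactivating A-type current of small nociceptors and was read by a pair of probe sets. The brighter gave 9.76, 9.79 and 9.90 in the cKO arrays, against 9.78, 9.72 and 9.80 in the wild-type arrays (log2 fold change 0.05, SE 0.07). The dimmer gave 9.39, 9.28 and 8.98 in the cKO arrays, against 9.45, 9.25 and 9.40 in the wild-type arrays (log2 fold change -0.15, SE 0.12). Both pairs of groups overlapped, and the direction of *Kcna4* is not settled. *Kcna10*, described mainly in the inner ear and kidney, had the smallest p of the 8 Kv1 genes. It was 6.08, 6.22 and 6.14 in the cKO arrays, against 5.91, 5.89 and 6.10 in the wild-type arrays, below the median probe set (log2 fold change 0.18, SE 0.09, adjusted p = 0.691 from limma). Of the 8, 5 log2 fold changes were positive and 3 negative, with a median of 0.04. *Kcna3*, *Kcna5* and *Kcna7* lay between -0.11 and 0.02. The neighbours *Kcna5*, *Kcna1* and *Kcna6* on chromosome 6 had log2 fold changes of -0.003, 0.12 and 0.10. On chromosome 3, the neighbours *Kcna3*, *Kcna2* and *Kcna10* had -0.11, -0.003 and 0.18.

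*Kcnb2* encodes Kv2.2, a delayed rectifier that repolarizes the spike and sets firing during sustained input. It was 11.31, 11.25 and 10.98 in the cKO arrays, against 11.40, 11.49 and 11.34 in the wild-type arrays. Each cKO array lay below each wild-type array, and cKO replicate 3 was lowest (log2 fold change -0.23, SE 0.11, 95% interval -0.49 to 0.03, adjusted p = 0.687 from limma). Without that array the log2 fold change was -0.13, and with *Xist* as a covariate it was -0.09. *Amigo1*, which encodes a Kv2 auxiliary protein and is not itself a *Kcn* gene, was 10.30, 10.48 and 10.45 in the cKO arrays, against 10.18, 10.13 and 10.19 in the wild-type arrays. Its cKO arrays lay above all wild-type arrays (log2 fold change 0.24, SE 0.08, adjusted p = 0.64 from limma), the opposite sign to *Kcnb2*.

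Kv3 channels (*Kcnc*) open at high voltage and close quickly, which keeps spikes short. The groups did not overlap for any of the 3 Kv3 genes measured, against 13.7% of all genes, and their signs differed. *Kcnc1* (Kv3.1) was 8.02, 8.07 and 8.09 in the cKO arrays, against 8.11, 8.19 and 8.16 in the wild-type arrays. *Kcnc2* (Kv3.2) was 8.15, 8.11 and 8.03 in the cKO arrays, against 8.18, 8.19 and 8.30 in the wild-type arrays. *Kcnc4* (Kv3.4), a fast-inactivating channel of nociceptors, was 9.62, 9.67 and 9.70 in the cKO arrays, against 9.54, 9.55 and 9.57 in the wild-type arrays. *Kcnc1* and *Kcnc2* were lower in every cKO array than in every wild-type array, and *Kcnc4* was higher. The differences were small, at -0.09, -0.13 and 0.11 for *Kcnc1*, *Kcnc2* and *Kcnc4*, with SEs of 0.07, 0.07 and 0.06, and the smallest adjusted p of the 3 from limma was 0.72.

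**Figure D3:**
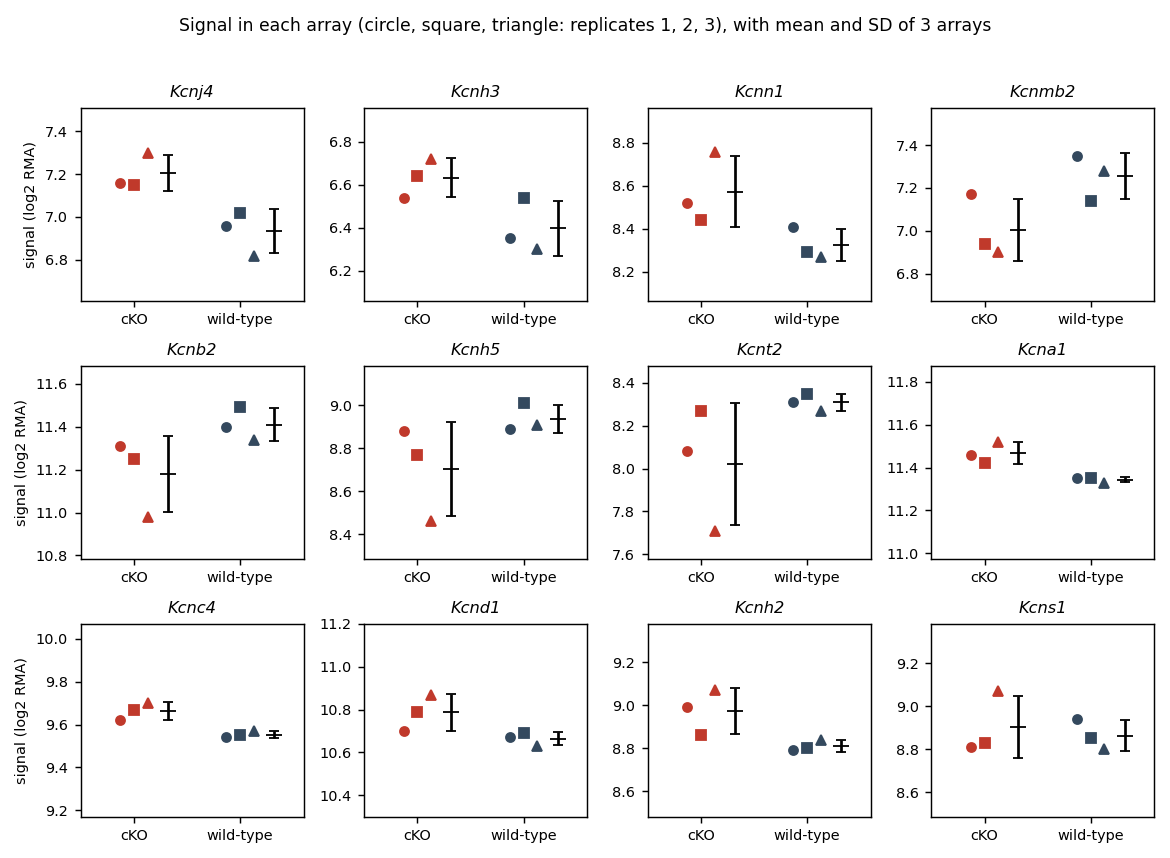
Signal (log2 RMA, y axis; each panel has its own range) of 12 potassium channel genes in each array of the cKO (left, red) and wild-type (right, blue) groups, with circle, square and triangle for replicates 1, 2 and 3 and the bar giving mean and SD of 3 arrays. The groups do not overlap for *Kcnj4*, *Kcnn1*, *Kcnb2*, *Kcnh5*, *Kcna1*, *Kcnc4*, *Kcnd1* and *Kcnh2*, and cKO replicate 3 lies apart from the other cKO arrays for *Kcnb2*, *Kcnh5* and *Kcnt2*.

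Kv4 channels (*Kcnd*) carry A-type current below threshold and work with KChIP (*Kcnip*) and DPP auxiliary proteins. *Kcnd1* (Kv4.1), which is X-linked, was 10.70, 10.79 and 10.87 in the cKO arrays, against 10.67, 10.69 and 10.63 in the wild-type arrays. The groups were separated by 0.01 at their closest arrays (log2 fold change 0.12, SE 0.07, adjusted p = 0.725 from limma). The value was 0.08 without cKO replicate 3 and 0.04 with *Xist* as a covariate. *Kcnd3* (Kv4.3), found in nonpeptidergic nociceptors, was 9.87, 9.80 and 9.91 in the cKO arrays, against 9.80, 9.84 and 9.91 in the wild-type arrays. *Kcnd2* (Kv4.2) was 6.79, 6.92 and 7.01 in the cKO arrays, against 6.93, 7.09 and 6.91 in the wild-type arrays. Both overlapped, with differences of 0.01 for *Kcnd3* and -0.07 for *Kcnd2*.

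The calcium-binding KChIPs overlapped between groups for all 4 genes, where 13.7% of all genes were without overlap. *Kcnip4* was 12.16, 12.05 and 11.91 in the cKO arrays, against 12.08, 12.28 and 12.04 in the wild-type arrays. *Kcnip1* was 7.69, 7.67 and 7.76 in the cKO arrays, against 7.66, 7.93 and 7.80 in the wild-type arrays. Each had a log2 fold change of -0.09, with SEs of 0.10 for *Kcnip4* and 0.09 for *Kcnip1*. *Kcnip2* was 8.49, 8.44 and 8.62 in the cKO arrays, against 8.49, 8.53 and 8.45 in the wild-type arrays, and *Kcnip3*, also known as the repressor DREAM, had a log2 fold change of -0.05 (SE 0.07). The DPP genes *Dpp6* and *Dpp10*, which are not *Kcn* genes, had log2 fold changes of 0.06 and 0.04.

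Kv7 channels (*Kcnq*) carry the M-current, a slow brake on firing that inflammatory mediators close. *Kcnq5* (Kv7.5) was 8.29, 8.40 and 8.31 in the cKO arrays, against 8.47, 8.52 and 8.38 in the wild-type arrays (log2 fold change -0.12, SE 0.07, adjusted p = 0.726 from limma). *Kcnq3* (Kv7.3) was 9.29, 9.24 and 9.02 in the cKO arrays, against 9.23, 9.28 and 9.19 in the wild-type arrays (log2 fold change -0.05, SE 0.09). For both the groups overlapped. *Kcnq1* (Kv7.1), a channel of heart and epithelia, was below the median probe set at a log2 fold change of -0.04. All 3 differences were thus negative, and a second, dimmer probe set of *Kcnq5* gave 0.02 (SE 0.08). *Kcnq1ot1*, an imprinted long noncoding RNA antisense to *Kcnq1*, was 8.63, 8.30 and 7.98 in the cKO arrays, against 8.50, 8.46 and 8.53 in the wild-type arrays. Its cKO arrays lay on both sides of the wild-type range. The log2 fold change of -0.19 (SE 0.16) was -0.03 without cKO replicate 3, and 0.14 with *Xist* as a covariate. *Kcnd3os*, the other noncoding transcript, had a log2 fold change of 0.08 (SE 0.13).

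The electrically silent subunits (*Kcnf*, *Kcng*, *Kcns* and *Kcnv*) form no channels alone and alter Kv2 channels when they join them. *Kcns1* (Kv9.1), a sensory neuron gene linked to pain sensitivity, was 8.81, 8.83 and 9.07 in the cKO arrays, against 8.94, 8.85 and 8.80 in the wild-type arrays. The groups overlapped, and cKO replicate 3 was highest (log2 fold change 0.04, SE 0.10). *Kcns3* (Kv9.3) was 8.69, 8.77 and 8.70 in the cKO arrays, against 8.65, 8.51 and 8.68 in the wild-type arrays. It was the only silent subunit of 10 without overlap (10.0%, against 13.7% of all genes). Its closest arrays were 0.01 apart (log2 fold change 0.11, SE 0.08, adjusted p = 0.765 from limma). Without wild-type replicate 2 the value was 0.06, and with the muscle marker mean as a covariate it was 0.01.

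*Kcnv1* (Kv8.1) was 9.25, 9.34 and 8.98 in the cKO arrays, against 9.28, 9.58 and 9.21 in the wild-type arrays (log2 fold change -0.17, SE 0.14). *Kcng4* (Kv6.4) was 7.46, 7.68 and 7.68 in the cKO arrays, against 7.46, 7.59 and 7.68 in the wild-type arrays, values that nearly coincide. The largest difference among the silent subunits, 0.21 for *Kcns2* (SE 0.15), rested on a low wild-type replicate 3. That gene was 6.94, 6.95 and 7.04 in the cKO arrays, against 7.07, 6.77 and 6.46 in the wild-type arrays, and without the low array its log2 fold change was 0.06. *Kcng1* (Kv6.1) was 7.04, 7.08 and 6.93 in the cKO arrays, against 7.05, 6.91 and 6.55 in the wild-type arrays, with the same array lowest. Its log2 fold change was 0.18 (SE 0.14) with all arrays and 0.04 without wild-type replicate 3. Of the 10 silent subunits, 7 were positive and 3 negative, with a median of 0.04, and the others (*Kcnf1*, *Kcng2*, *Kcng3* and *Kcnv2*) lay between -0.04 and 0.08. *Kcnf1* (Kv5.1), the only gene of its subfamily, was 6.53, 6.27 and 6.35 in the cKO arrays, against 6.39, 6.14 and 6.39 in the wild-type arrays, with overlapping groups.

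The *Kcnh* family holds the EAG, ERG and ELK channels, which tune excitability slowly. For 4 of its 8 genes (50%) the groups did not overlap, 3 higher and 1 lower, against 13.7% of all genes. *Kcnh2*, the ERG channel gene known for its role in cardiac repolarization, was 8.99, 8.86 and 9.07 in the cKO arrays, against 8.79, 8.80 and 8.84 in the wild-type arrays. Every cKO array exceeded every wild-type array (log2 fold change 0.16, SE 0.08, adjusted p = 0.691 from limma). The EAG gene *Kcnh1* was 9.62, 9.63 and 9.72 in the cKO arrays, against 9.55, 9.50 and 9.59 in the wild-type arrays (log2 fold change 0.11, SE 0.07). The ELK gene *Kcnh4* was 5.63, 5.60 and 5.63 in the cKO arrays, against 5.58, 5.54 and 5.56 in the wild-type arrays (log2 fold change 0.06, SE 0.06). Both were without overlap, and *Kcnh4* lay below the median probe set. *Kcnh3*, another ELK gene, was 6.54, 6.64 and 6.72 in the cKO arrays, against 6.35, 6.54 and 6.30 in the wild-type arrays. The lowest cKO array equalled the highest wild-type array (log2 fold change 0.24, SE 0.09, p = 0.0417 and adjusted p = 0.661 from limma, exact permutation p = 0.2).

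*Kcnh5*, the second EAG gene, had the opposite sign. It was 8.88, 8.77 and 8.46 in the cKO arrays, against 8.89, 9.01 and 8.91 in the wild-type arrays. All cKO arrays were lower, but replicate 1 by only 0.01 (log2 fold change -0.23, SE 0.12, adjusted p = 0.7 from limma). Without cKO replicate 3 the value was -0.11, and with *Xist* as a covariate it was -0.04. The ERG genes *Kcnh6* and *Kcnh7* and the ELK gene *Kcnh8* overlapped, with log2 fold changes of 0.08, -0.06 and -0.10.

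*Kcnma1* encodes the pore of the BK channel, which is opened jointly by calcium and depolarization. It was among the most precisely measured of the 75 genes, at 10.04, 9.99 and 10.00 in the cKO arrays, against 10.03, 10.06 and 9.99 in the wild-type arrays. The difference was -0.02 (SE 0.06, 95% interval -0.17 to 0.14). Among its beta subunits, *Kcnmb2*, which makes BK channels inactivate, was 7.17, 6.94 and 6.90 in the cKO arrays, against 7.35, 7.14 and 7.28 in the wild-type arrays. The groups overlapped because cKO replicate 1 exceeded wild-type replicate 2 (log2 fold change -0.25, SE 0.10, p = 0.0452 and adjusted p = 0.662 from limma, exact permutation p = 0.2). With *Xist* as a covariate the value was -0.09.

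*Kcnmb1*, the smooth muscle beta subunit, was 10.20, 10.04 and 10.12 in the cKO arrays, against 9.87, 10.48 and 9.87 in the wild-type arrays. The wild-type arrays were widely spread, with replicate 2 above all others (log2 fold change 0.05, SE 0.17). Over 10 smooth muscle and pericyte markers the mean was 8.41, 8.56 and 8.59 in the cKO arrays, against 8.32, 8.34 and 8.39 in the wild-type arrays. Among the wild-type arrays, replicate 2 was highest for some of these markers, such as *Acta2* and *Myh11*, and not for others, such as *Cnn1* and *Des*. The DRG neuron markers were also mixed. Replicate 2 was the highest wild-type array for *Scn10a* and *Scn11a*, for example, and not for *Isl1* and *Pou4f1*. A link between these markers and *Kcnmb1* was not tested. *Kcnmb4*, the neuronal beta subunit, was 7.85, 7.98 and 8.08 in the cKO arrays, against 7.93, 7.98 and 7.97 in the wild-type arrays, and *Kcnmb3* had a log2 fold change of -0.04. The sperm channel gene *Kcnu1*, below the median probe set, was 4.70, 4.66 and 4.85 in the cKO arrays, against 4.84, 4.94 and 4.73 in the wild-type arrays (log2 fold change -0.10, SE 0.09).

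Small- and intermediate-conductance channels (*Kcnn*) are opened by calcium alone and produce the slower afterhyperpolarization. *Kcnn1* (SK1) was 8.52, 8.44 and 8.76 in the cKO arrays, against 8.41, 8.29 and 8.27 in the wild-type arrays. All cKO arrays were higher, with replicate 3 highest (log2 fold change 0.25, a 1.19-fold difference, SE 0.10, 95% interval 0.00 to 0.50, p = 0.0486 and adjusted p = 0.666 from limma, exact permutation p = 0.1). Without cKO replicate 3 it was 0.16. *Kcnn2* (SK2) averaged 7.21 ± 0.03 in the cKO arrays and 7.21 ± 0.14 in the wild-type arrays (SD, n = 3 each). The individual values were 7.25, 7.19 and 7.19 in the cKO arrays, against 7.31, 7.27 and 7.05 in the wild-type arrays. *Kcnn4*, the intermediate-conductance channel also found in blood cells, was 8.07, 8.02 and 8.22 in the cKO arrays, against 8.21, 7.94 and 8.14 in the wild-type arrays, a difference of 0.01.

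*Kcnn3* (SK3) had the widest spread over the 6 arrays of all 75 genes, at 0.83, where the median gene of the 75 had 0.28. It was 7.0, 6.52 and 6.77 in the cKO arrays, against 7.35, 7.14 and 6.62 in the wild-type arrays, with overlapping groups. The log2 fold change of -0.27 (SE 0.21, 95% interval -0.78 to 0.23) was -0.48 without wild-type replicate 3, -0.12 without wild-type replicate 1, and 0.17 with the muscle marker mean as a covariate. The direction of *Kcnn3* was therefore not settled.

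The sodium-activated channels Slack (*Kcnt1*) and Slick (*Kcnt2*) oppose firing when sodium accumulates. *Kcnt1* was 11.02, 11.06 and 11.02 in the cKO arrays, against 10.88, 11.10 and 10.90 in the wild-type arrays (log2 fold change 0.07, SE 0.08). *Kcnt2* was 8.08, 8.27 and 7.71 in the cKO arrays, against 8.31, 8.35 and 8.27 in the wild-type arrays. The highest cKO array met the lowest wild-type array, and cKO replicate 3 stood well below the rest. At -0.29 (SE 0.14, 95% interval -0.64 to 0.06, adjusted p = 0.694 from limma) its estimate was the most negative of the 75. The value was -0.14 without cKO replicate 3 and -0.42 without cKO replicate 2.

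Inward rectifiers of the Kir2 group (*Kcnj2*, *Kcnj4*, *Kcnj12* and *Kcnj14*) hold the resting potential of neurons and muscle. *Kcnj4* (Kir2.3) had the smallest p and the highest log2 fold change of the 75 genes. It was 7.16, 7.15 and 7.30 in the cKO arrays, against 6.96, 7.02 and 6.82 in the wild-type arrays. All cKO arrays were higher (log2 fold change 0.27, a 1.21-fold difference, SE 0.09, 95% interval 0.06 to 0.48, p = 0.0181 and adjusted p = 0.64 from limma, exact permutation p = 0.1). The value was 0.22 with *Xist* as a covariate and 0.41 with the muscle marker mean as a covariate, and lay between 0.21 and 0.31 with 1 array left out. *Kcnj12* (Kir2.2) was 7.91, 7.90 and 7.78 in the cKO arrays, against 7.81, 7.71 and 7.81 in the wild-type arrays (log2 fold change 0.09, SE 0.07). *Kcnj14* had 0.07 and *Kcnj2* (Kir2.1) -0.14, so that 3 of the 4 were positive.

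The GIRK genes (*Kcnj3*, *Kcnj5*, *Kcnj6* and *Kcnj9*) encode channels that G proteins open after opioid and other inhibitory receptors are engaged. *Kcnj3* (GIRK1) was 8.80, 8.77 and 8.80 in the cKO arrays, against 8.81, 8.91 and 8.87 in the wild-type arrays. The groups were 0.01 apart at their closest, all cKO arrays being lower (log2 fold change -0.07, SE 0.07, adjusted p = 0.803 from limma). A second, dimmer probe set of *Kcnj3* overlapped between groups and gave -0.01 (SE 0.12). *Kcnj6* (GIRK2) was 6.60, 6.48 and 6.14 in the cKO arrays, against 6.43, 6.35 and 6.20 in the wild-type arrays. *Kcnj9* (GIRK3) was 6.50, 6.23 and 6.14 in the cKO arrays, against 6.07, 6.19 and 6.08 in the wild-type arrays. Both were below the median probe set and overlapped, at 0.08 (SE 0.14) for *Kcnj6* and 0.18 (SE 0.11) for *Kcnj9*. The *Kcnj9* value was 0.07 without cKO replicate 1, and 0.39 with *Xist* as a covariate (adjusted p = 0.376 from limma).

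*Kcnj11* encodes the pore of the ATP-sensitive channel. It was 7.36, 7.13 and 7.41 in the cKO arrays, against 7.18, 7.41 and 7.10 in the wild-type arrays (log2 fold change 0.07, SE 0.12). Its sulfonylurea receptor partner *Abcc8* had -0.07, and *Abcc9*, the receptor found in pericytes and smooth muscle, had 0.11 without overlap between groups. Among the transport Kir genes, *Kcnj16* (Kir5.1), known in kidney and in glia, was 6.89, 7.22 and 7.15 in the cKO arrays, against 6.95, 6.75 and 6.98 in the wild-type arrays. The groups overlapped through cKO replicate 1 (log2 fold change 0.19, SE 0.11, adjusted p = 0.722 from limma). With 1 array left out the value lay between 0.12 and 0.29, and with *Xist* or the muscle marker mean as a covariate it was 0.01 or 0.04. *Kcnj1* and *Kcnj15* had 0.10 (SE 0.17) and -0.03 (SE 0.10). Of the 12 Kir genes, 9 were positive and 3 negative, with a median of 0.08 against 0.00 over all genes.

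HDAC4 is known as a corepressor of MEF2 transcription factors, so promoters were searched for the MEF2 consensus on both strands. The windows run from 250 bases before to 50 after each start in RefSeq (GRCm38.p6). Of 57 potassium channel genes with such a window, 2 held a match (3.51%), against 3.7% of all genes with one. They were *Kcnj9* and 1 of the 4 promoters listed for *Kcnj16*, and both genes had overlapping groups. The windows are shown 5′ to 3′ because they are the only ones with a match, with the match in capitals, which starts 118 bases before the start in *Kcnj9* (chr1:172329273-172329572, minus strand) and 19 bases before it in *Kcnj16* (chr11:110967783-110968082, plus strand).
Kcnj9: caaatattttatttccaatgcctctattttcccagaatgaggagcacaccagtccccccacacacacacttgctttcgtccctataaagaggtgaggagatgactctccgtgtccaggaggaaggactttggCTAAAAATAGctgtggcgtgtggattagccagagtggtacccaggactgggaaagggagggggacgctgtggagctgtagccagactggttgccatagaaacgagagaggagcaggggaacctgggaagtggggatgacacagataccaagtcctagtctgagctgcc
Kcnj16: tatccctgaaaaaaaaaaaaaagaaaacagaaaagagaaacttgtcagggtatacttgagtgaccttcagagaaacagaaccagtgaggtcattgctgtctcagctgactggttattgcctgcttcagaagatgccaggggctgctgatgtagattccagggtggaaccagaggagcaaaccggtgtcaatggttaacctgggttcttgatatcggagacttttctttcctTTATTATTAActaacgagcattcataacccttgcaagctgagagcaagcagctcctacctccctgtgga
The full cAMP response element TGACGTCA was in 0 of the 57, against 2.03% of all genes. The shorter TGACG, with which the full element begins, was in 17 of the 57 on either strand (29.8%), against 23.0% of all genes. The member windows had a median GC content of 58.2%, against 52.7% over all promoters. A match describes the letters and is no evidence of binding.

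In the remaining auxiliary genes the groups overlapped, as they did in most genes. The cytoplasmic beta subunits of Kv1 channels (*Kcnab*) include *Kcnab2*, at 11.04, 11.06 and 11.06 in the cKO arrays, against 11.02, 10.97 and 11.06 in the wild-type arrays, and *Kcnab1*, at 9.68, 9.57 and 9.72 in the cKO arrays, against 9.61, 9.94 and 9.63 in the wild-type arrays. Their log2 fold changes were 0.04 (SE 0.07) and -0.07 (SE 0.11), and that of *Kcnab3* was 0.03. *Kcne* genes encode single-span subunits that modulate Kv channels. *Kcne4* was 6.73, 6.81 and 6.41 in the cKO arrays, against 6.87, 6.65 and 6.40 in the wild-type arrays. *Kcne1l*, which is X-linked, was 7.53, 7.45 and 7.55 in the cKO arrays, against 7.49, 7.51 and 7.28 in the wild-type arrays (log2 fold change 0.08, SE 0.09). Both overlapped. *Kcne3* had the largest difference of the 5 and was 6.06, 6.29 and 6.54 in the cKO arrays, against 6.36, 6.14 and 6.00 in the wild-type arrays (log2 fold change 0.13, SE 0.15). Over the 12 *Kcnab*, *Kcnip* and *Kcne* genes the median was 0.01 and 0 were without overlap, against 13.7% of all genes. *Kcnrg*, whose product holds back Kv channel assembly, was 4.67, 4.85 and 4.62 in the cKO arrays, against 4.50, 4.70 and 4.50 in the wild-type arrays, below the median probe set (log2 fold change 0.15, SE 0.10).

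Other genes that bind, anchor or regulate potassium channels were given by a list of 26, all measured. At an adjusted p under 0.05 limma called 0 of 26, and at an unadjusted p under 0.05 it gave 1 (3.85%, against 5.48% of all genes), *Amigo1*. The groups did not overlap for 2 (7.69%, against 13.7%), *Amigo1* and *Abcc9*, both higher in the cKOs. In all, 11 log2 fold changes were positive and 15 negative, with a median of -0.03. *Cntnap2*, which clusters Kv1 channels beside the node, was 11.04, 11.00 and 10.95 in the cKO arrays, against 10.99, 11.06 and 11.02 in the wild-type arrays. *Cntn2*, its adhesion partner, was 10.42, 10.57 and 10.64 in the cKO arrays, against 10.45, 10.13 and 10.38 in the wild-type arrays (log2 fold change 0.22, SE 0.11). Both overlapped. *Sgk1*, a kinase that raises the surface level of several channels, was the most variable of the list, at 8.95, 7.92 and 8.81 in the cKO arrays, against 8.13, 8.81 and 9.14 in the wild-type arrays.

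**Figure D4:**
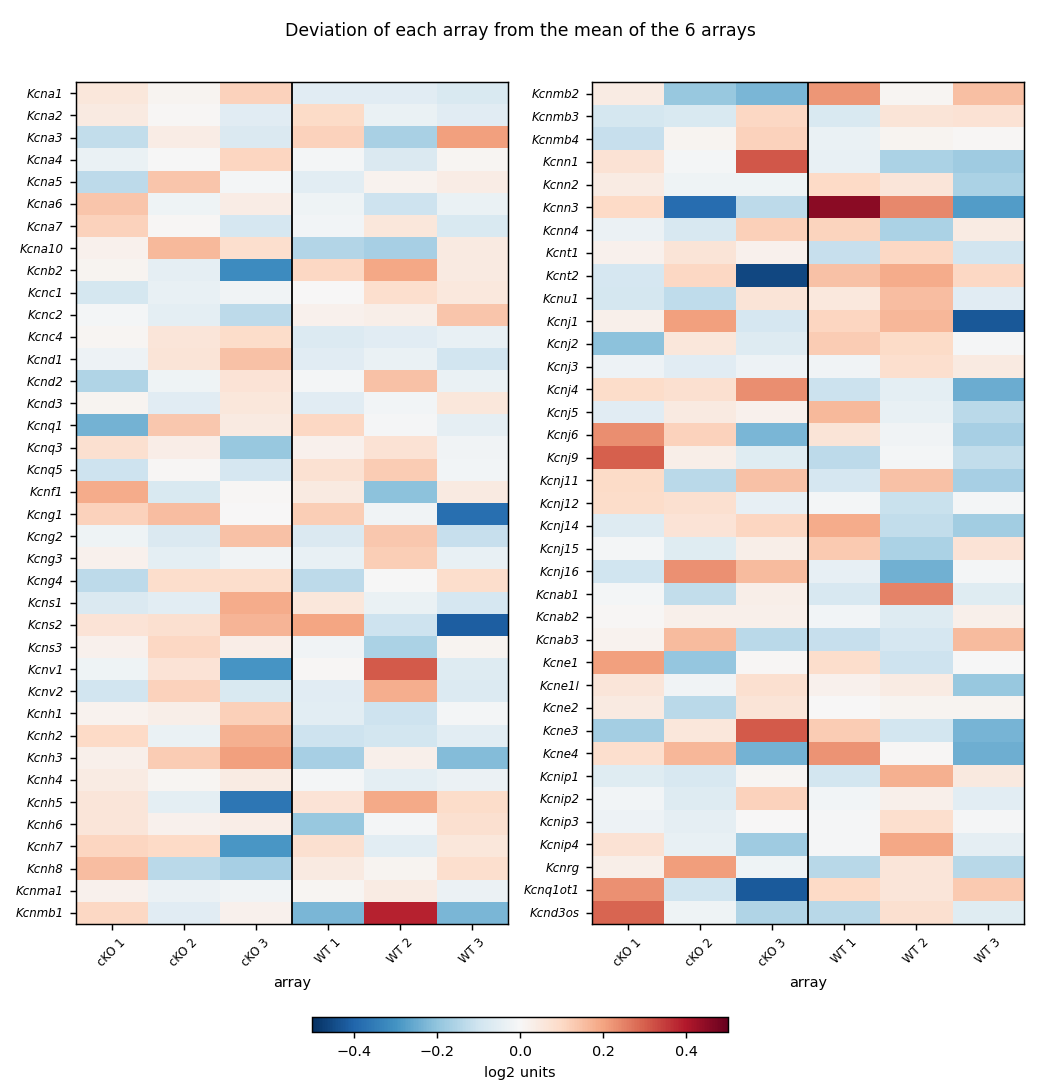
Deviation of each array (columns, cKO left of the line and wild-type right) from the mean of the 6 arrays (color, log2 units) for each of the 75 potassium channel genes (rows). Most cells are pale, and many of the darkest stand in single arrays. Examples are cKO replicate 3 for *Kcnt2*, *Kcnh5* and *Kcnq1ot1*, wild-type replicate 3 for *Kcnj1* and *Kcns2*, and wild-type replicate 2 for *Kcnmb1*. *Kcnn3*, with the widest range of the 75 genes, has dark cells in both groups.

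Over the 6 arrays, the difference between the highest and lowest array had a median of 0.28 over the 75 genes and was over 0.5 in 11 of them (14.7%), against a median of 0.31 and 16.7% over all genes. Replicate 3 of the cKOs was alone in being highest for 18 of the 75 genes (24.0%) and lowest for 15 (20%), against 22.8% and 17.1% of all genes. Wild-type replicate 2 was alone in being highest for 18 (24.0%, against 14.1% of all genes), and wild-type replicate 3 for 3 (4.0%, against 15.2%).

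**Figure D5:**
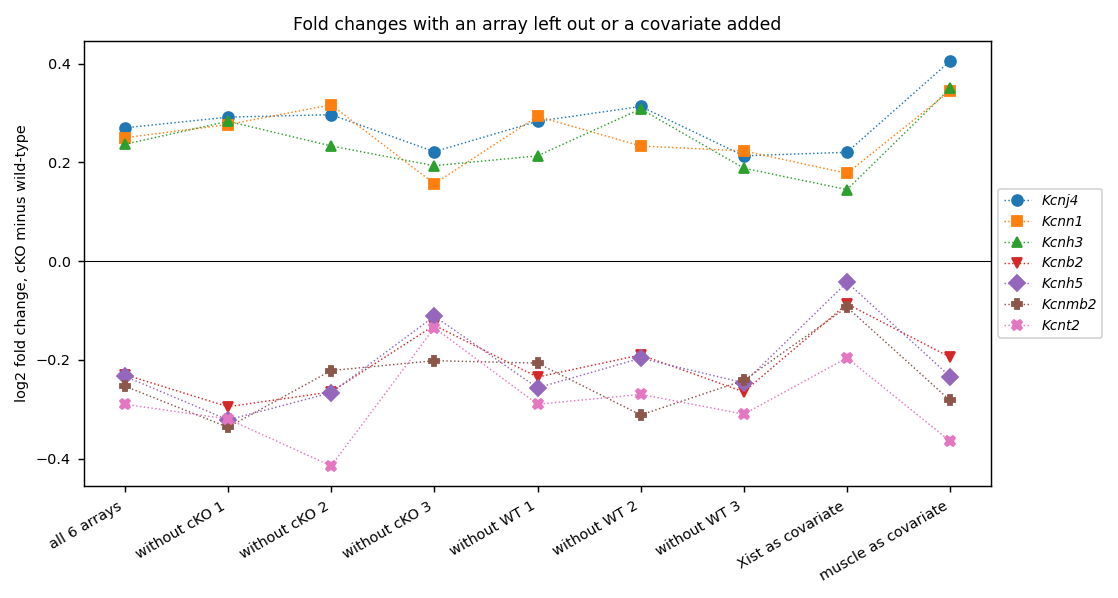
Log2 fold change (cKO minus wild-type, y axis) of 7 potassium channel genes with all 6 arrays, with each array left out in turn, and with *Xist* or the skeletal muscle marker mean as a covariate (x axis). All plotted values keep their sign, *Kcnj4* lies between 0.21 and 0.41, and *Kcnb2*, *Kcnh5* and *Kcnt2* are nearest to 0 without cKO replicate 3 or with *Xist* as a covariate.

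For the genes with the smallest p values, the plot of fold changes with 1 array left out shows the dependence on single arrays. *Kcnj4* kept an unadjusted p under 0.05 in 11 of 15 alternative fits, *Kcnh3* in 8, *Kcnmb2* in 8 and *Kcnn1* in 6. Adjusted p values of *Kcnj4* from limma were between 0.402 and 0.892 over those fits. Without cKO replicate 3, none of the 4 remained under 0.05 unadjusted, and the same held with *Xist* as a covariate, where *Kcnj9* and *Kcnd3os* had an unadjusted p under 0.05 instead. Of the 14 genes without overlap, 6 had a log2 fold change more than 1.5 times smaller with *Xist* as a covariate and 4 without cKO replicate 3, and none changed sign in these fits. Among the cKO arrays, the fit with *Xist* rests mainly on replicate 1, so it is no comparison of the full groups at equal sex. Without cKO replicate 1, *Kcnb2* and *Kcnh5* had unadjusted p values of 0.0389 and 0.0345 from limma (adjusted 0.424 and 0.412), with log2 fold changes of -0.30 and -0.32. That fit sets 2 arrays with male signals against 3 with female signals, so a difference there cannot be told apart from one between the sexes.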

How the data were processed

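RNA of whole lumbar DRGs was hybridized by the authors to Affymetrix Mouse Gene 2.0 ST arrays after processing with a whole transcript expression kit from Ambion. The deposited table holds log2 values that the authors made with oligo and RMA in R, which subtract background, quantile normalize and summarize probes. Versions, array genome build and transcript annotation are not given in the sources used here. Quantile normalization gives arrays nearly equal distributions, so signals are relative within this set. Array medians were 6.43 to 6.50 and correlations between arrays 0.987 to 0.994. Neither raw intensities nor detection calls entered the tests. How far a signal exceeded background is thus unknown, and precision is limited by the 6 arrays. Signals of different probe sets were not read as relative amounts of RNA. They served to pick a gene's brighter probe set and to place genes against the median signal.

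Of 41345 probe sets, 23521 have a single gene symbol in the platform annotation, and these stand for 22180 genes. Group was the only term of a linear model fitted to all probe sets with limma 3.58.1 (lmFit, eBayes at defaults, prior degrees of freedom 2.51) in R 4.3.3 with statmod 1.5.0. It was tested on simulated data with changes larger than any seen in the potassium channel genes, so that test does not cover differences of their size. A called gene needed an adjusted p under 0.05. Values of every array are given for genes at an unadjusted p under 0.05, the gene with the smallest p of each subfamily, and a list of 39 genes with a known sensory neuron role, of which 3 are not analysed here. A few others (*Kcns2*, *Kcnn3*, *Kcnj16*, *Kcne3* and *Kcnq1ot1*, genes without overlap, and the partner genes) were chosen after their values were seen. The members and lists were chosen with earlier results of these data known. Alternatives were cyclic loess, a filter at the median signal, probe sets with 1 symbol, array weights, eBayes with trend and robust, a replicate block, 1 array left out at a time, *Xist* or the muscle mean as covariate, an adjusted p under 0.1 and the mean over probe sets of a gene. Promoter sequences are from RefSeq (GRCm38.p6).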

Additional observations from a re-analysis of the deposited data

How the results depend on the processing

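Calls at an adjusted p under 0.05 or under 0.1 numbered 0 under every alternative run, of 75 genes or, with the filter at the median signal, of 54. The median log2 fold change of the 75 genes lay between 0.005 and 0.029. Of the unadjusted results under 0.05 (3 higher and 1 lower in the cKOs), the higher count was 0 with the replicate block, against 1.6% of all genes (smallest adjusted p = 0.804 from limma). The lower count was 0 with cyclic loess (2.54% of all genes) and 0 with *Xist* as a covariate (3.12%). It was 2 with eBayes with trend and robust (3.6%) and 2 with array weights (3.94%). With 1 array left out, the higher count ran from 0 to 3 (1.67% to 4.95% of all genes in those fits) and the lower from 0 to 5 (1.67% to 4.33%), the 5 arising without cKO replicate 1. Genes without overlap (9 higher and 5 lower) numbered 3 lower under cyclic loess (6.96% of all genes). With 1 array left out, 12 to 14 were higher (10.2% to 16.7% of all genes) and 6 to 10 lower (10.9% to 15.1%). Fewer arrays overlap less often. The replicate numbers share no animal or batch in the labels, and deviations of same-numbered arrays had correlations of -0.08, -0.10 and -0.07. Intervals within 0.5 of 0 numbered 48 with the muscle covariate, against 68, and 58 to 67 with 1 array left out. Of the 75 log2 fold changes, none of them called, 34 kept their sign under every alternative that held them (15 for 29 genes, and 14 for 5 below the median signal) and 41 did not, with 19 changes of sign with *Xist*, 17 with the muscle mean and 12 without cKO replicate 3. These counts of intervals and signs were made for the 75 genes only, without the share over all genes under each alternative. The causes were not tested.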
